A study of Mus musculus with 11 samples.

Results

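Expression was examined for 29 genes of cholesterol and fatty acid synthesis in basal and luminal cells of terminal end buds (TEBs) and ducts of the mouse mammary gland. The genes were chosen by name, as enzymes and regulators of both pathways, out of 27179 gene identifiers in the count table. The choice was made with earlier results of these data known. All 29 were found, and 29 of 29 were among the 17370 genes that passed a filter on low counts. TEBs are the bulb-shaped growing tips of the ductal tree in puberty, and ducts are the tubes that they leave behind. Basal cells form the outer, contractile layer and luminal cells the inner layer.

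The mice were C57BL/6 animals aged 5 weeks that expressed an E-cadherin-GFP reporter, and every group carried the reporter. TEBs and ducts were separated by microdissection, and lineage-negative CD29+CD24+ cells were sorted as Ecad-GFPhi (luminal) or Ecad-GFPlo (basal), with no treatment in any group. There were 3 libraries each of basal duct, basal TEB and luminal TEB cells and 2 of luminal duct cells (replicates 1 and 3), since the authors left out 1 luminal duct library that had too few cells. Each replicate was a pool of at least 2 mice, and all libraries were of bulk RNA, in which fewer cells of a type and less RNA per cell cannot be told apart.

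Totals ranged from 27989137 to 49221436 counts per library. Basal markers (Krt5, Krt14, Krt17, Trp63, Acta2 and Myh11) summed to between 5240 and 18400 CPM in basal and between 13.1 and 222 CPM in luminal libraries, and 10 luminal markers summed to between 13400 and 20300 CPM in luminal and between 528 and 747 CPM in basal libraries, as the labels say. CPM are counts-per-million after scaling by TMM, the trimmed mean of M-values. Mitochondrial genes held 37.5% of counts in basal TEB replicate 1, 28.5% in luminal duct replicate 3 and between 4.34% and 17.8% in the others. Basal duct replicate 2 and luminal duct replicate 3 held more transcripts of other cells than the rest of their groups: 6 endothelial markers summed to 203 CPM in basal duct replicate 2, against 8.98 and 18.5 CPM in the other two, and to 32.5 CPM in luminal duct replicate 3, against 1.0 CPM in replicate 1. The immune markers, of which 7 of 8 passed the filter, summed to 77.4 CPM in basal duct replicate 2 and to 64.1 CPM in luminal duct replicate 3, against 29.9, 23.0 and 12.5 CPM in the remaining duct libraries.

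Cells make cholesterol from acetyl-CoA through mevalonate, isoprenoid diphosphates, squalene and lanosterol, and make palmitate from the same precursor with ATP citrate lyase, acetyl-CoA carboxylase and fatty acid synthase. Transcription factors of the SREBP family, released from the endoplasmic reticulum when sterols are low, drive most genes of both pathways, while INSIG proteins hold them back. In the mammary gland these pathways are best known for milk fat in lactation, and dividing cells use them for membranes.

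The order of the genes by level per length differed between the cell types. Levels per length are given as RPKM, CPM per kilobase of counted gene length. In basal TEB cells the highest mean level was that of Scd2, a stearoyl-CoA desaturase, at 47.2 ± 3.03 RPKM (SD, n = 3), and the next were Srebf2, which encodes SREBP2, at 39.5 ± 7.53 RPKM and Fads1, a delta-5 fatty acid desaturase, at 36.9 ± 7.51 RPKM. The last 2 of these lay within each other's SD. In basal ducts Srebf2 (35.0 ± 11.4 RPKM), Fads1 (34.8 ± 8.95 RPKM) and Scd2 (33.5 ± 13.1 RPKM) led, and their order was within the spread. In luminal TEB cells Acly, ATP citrate lyase, came first at 66.9 ± 0.417 RPKM, above Srebf2 at 47.8 ± 3.28 RPKM, and Fads1 was 22nd of 29 at 9.02 ± 2.93 RPKM. In luminal ducts Acly and Elovl1, an elongase of very long saturated chains, were first at 40.5 ± 2.45 and 40.2 ± 3.14 RPKM (n = 2), indistinguishable by their SD. Stard4, a sterol transfer protein, was the lowest in 3 of the groups, at between 1.98 and 3.38 RPKM, and the second lowest in basal ducts. Scd2 made up between 58.7% and 80.5% of the summed RPKM of Scd1 and Scd2 in 10 libraries and 33.5% in luminal duct replicate 3. Scd1 and Scd2 are close copies whose reads could be split between them by the counting, so their separate values are uncertain.

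**Figure D1:**
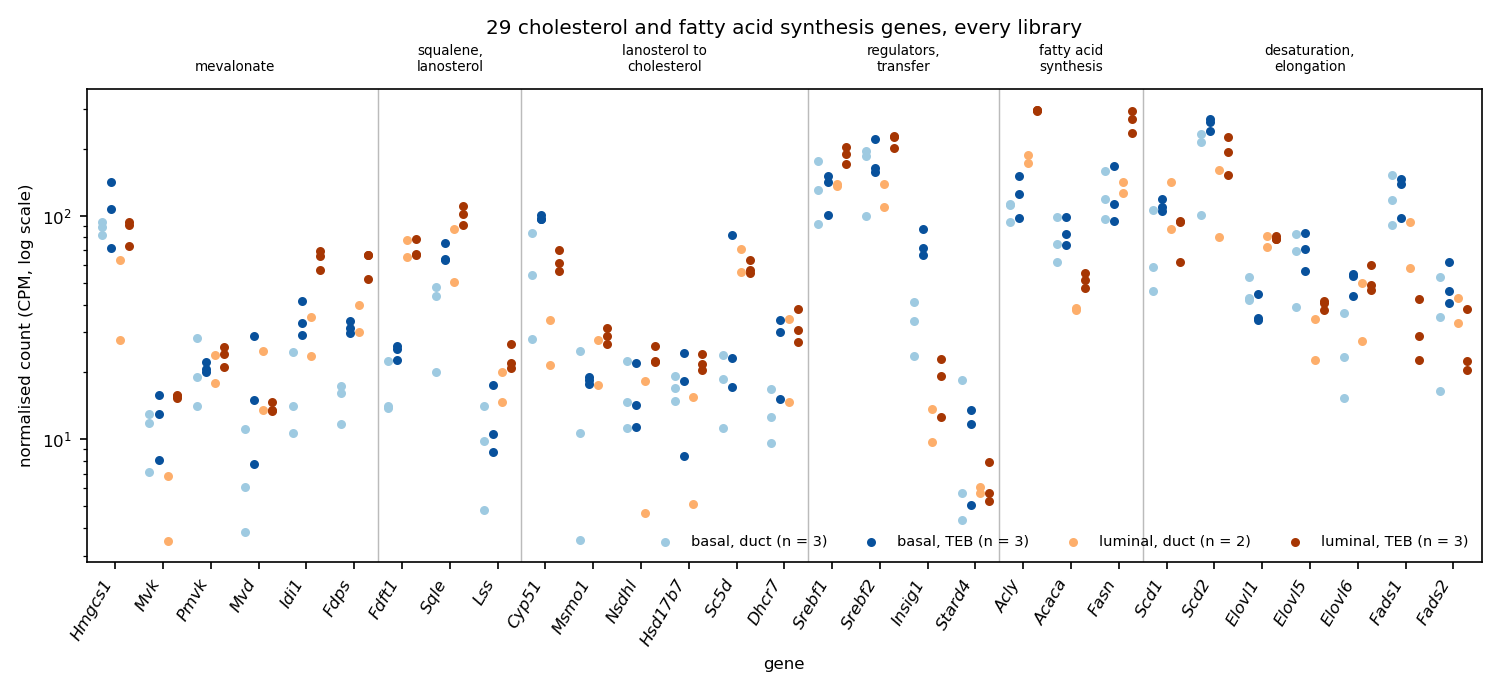
Normalised counts (CPM after TMM scaling, log axis) of the 29 genes in all 11 libraries, grouped by role along the x axis, with 1 point per library and the 4 groups in separate colours. The basal libraries lie above the luminal ones for Insig1 and below them for Fdft1, and the lowest Msmo1 value, 3.53 CPM, is that of basal duct replicate 2.

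The members varied more in basal ducts than genes at large. Their median coefficient of variation over the basal duct libraries was 35.1%, against 20.5% for the genes with a mean of at least 3 CPM and no library at 0, while in basal TEBs it was 19.6% against 24.5% and in luminal TEBs 9.98% against 8.25%. Basal duct replicate 2 held the lowest value of its group for 21 of the 29 genes (72.4%), as it did for 34.9% of all genes tested. The widest case was Msmo1, a C4-demethylase of sterols, with 24.8, 3.53 and 10.6 CPM in basal duct replicates 1, 2 and 3, a 7.03-fold range. Among TEB libraries the widest range was that of Sc5d, lathosterol oxidase, with 81.8 CPM in basal TEB replicate 1 and 23.1 and 17.1 CPM in the other two.

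Promoter sequences are shown for a few of the genes, since the factors that drive these pathways bind short motifs near the start of transcription. The promoters of RefSeq (GRCm38.p6, from 250 bases before to 50 after each start) held 22 of the 29 genes, and the remaining 7 are Fdps, Fdft1, Sqle, Stard4, Scd1, Scd2 and Fads1. CCAAT, the box bound by NF-Y, was searched on both strands (ATTGG on the other) and lay in 19 of the 22 genes (86.4%), against 41.1% of all 27025 genes with a promoter. At least 2 such boxes lay in 1 promoter of 10 of the 22 genes. Of all promoters 11.7% held at least 2, which is a share of promoters and not of genes, so these values are not directly comparable. CACGTG, an E-box that SREBP1 and other factors can bind, lay in 5 of 22 (22.7%) against 8.09% of genes. TCACNCCAC, a form of the sterol regulatory element, lay in 1 of 22, Hmgcs1, against 1.44% of genes. Acaca, Elovl6 and Fads2 held none of these letters in their windows. The only start given for Acaca lay inside the span of the gene, and so did that of Fasn. The sequence at the outer end of these genes was not searched. Starts with a match in Elovl1 and Srebf1 also lay inside the span of the gene. In the 5 stretches that follow, each of 120 bases and written 5′ to 3′ on the strand of the gene, capitals mark these motifs. Hmgcs1 is shown for its sterol regulatory element, Idi1 and Mvk for their CCAAT boxes close to the start, Insig1 for its E-box and Fasn for CCAAT and ATTGG that overlap in 1 run.
Hmgcs1, chr13:119690158-119690277, plus strand: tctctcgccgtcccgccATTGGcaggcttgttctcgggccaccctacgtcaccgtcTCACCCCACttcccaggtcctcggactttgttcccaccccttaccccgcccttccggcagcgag
Idi1, chr13:8885486-8885605, plus strand: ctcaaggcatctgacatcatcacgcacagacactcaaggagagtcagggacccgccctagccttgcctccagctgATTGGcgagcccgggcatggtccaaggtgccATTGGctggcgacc
Mvk, chr5:114444149-114444268, plus strand: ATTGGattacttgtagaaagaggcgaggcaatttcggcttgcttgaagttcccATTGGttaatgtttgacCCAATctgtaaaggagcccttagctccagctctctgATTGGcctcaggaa
Insig1, chr5:28071292-28071411, plus strand: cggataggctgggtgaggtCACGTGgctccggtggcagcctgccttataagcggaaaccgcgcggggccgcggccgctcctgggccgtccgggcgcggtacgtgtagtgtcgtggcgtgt
Fasn, chr11:120824548-120824667, minus strand: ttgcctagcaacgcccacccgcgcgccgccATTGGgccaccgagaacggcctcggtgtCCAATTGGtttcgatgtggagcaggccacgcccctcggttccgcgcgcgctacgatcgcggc
The element of Hmgcs1 starts 137 bases before its start of transcription, the CCAAT boxes of Idi1 start 45 and 14 bases before it, and the E-box of Insig1 starts 101 bases before it. Such matches are letters found in a window and do not show binding in these cells.

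TEBs were compared with ducts to ask which genes differ between the growing tip and the mature tube. In basal cells Fdps, farnesyl diphosphate synthase, rose in TEBs, and it was the only gene of the 29 past an FDR of 0.05. The FDR is the Benjamini-Hochberg adjusted p of edgeR's quasi-likelihood test, adjusted over all genes tested. The count of 1 higher and 0 lower stands beside 0.167% of all genes higher and 1.16% lower, and 11 of the 29 genes had an unadjusted p under 0.05, as did 14.5% of all genes. The log2 fold change was above 0 for 25 of the 29 (86.2%), against 46.9% of all genes, and its median was 0.37, against -0.03. All 6 genes of the mevalonate and isoprenoid steps, 3 of 3 of squalene and lanosterol and 5 of 6 of the later sterol steps had a value above 0, with medians of 0.68, 0.55 and 0.66. Fatty acid synthesis by Acly, Acaca and Fasn had a median of 0.12, and the 7 desaturases and elongases one of 0.50.

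Fdps (Entrez 110196, chr3:89093588-89101967) stood at 17.2, 11.7 and 16 CPM in basal duct replicates 1 to 3 and at 31.3, 29.7 and 33.9 CPM in basal TEB replicates 1 to 3. The groups did not overlap, and every TEB library was above 29 CPM. The log2 fold change was 1.08 (SE 0.22, FDR = 0.0411). The call did not hold without any 1 of the 6 basal or of the 3 luminal TEB libraries, where the FDR was between 0.0564 and 0.163 and the log2 fold change between 0.93 and 1.16, and with scaling by library size alone the FDR was 0.408.

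The groups of basal libraries did not overlap for 8 genes, all with the TEB libraries higher, which is 27.6% of the 29 against 8.88% of all genes higher and 11.9% lower. Besides Fdps these were Idi1, Fdft1, Sqle, Cyp51, Insig1, Scd2 and Elovl6, singled out here after their values were seen, and none of these 7 passed the FDR. Insig1, whose product retains SREBP in the endoplasmic reticulum, was at 41.0, 23.5 and 33.6 CPM in basal duct and at 87.6, 66.8 and 71.6 CPM in basal TEB replicates, with a log2 fold change of 1.20 (SE 0.29, FDR = 0.0724). Idi1, isopentenyl diphosphate isomerase, was at 24.5, 10.6 and 14.1 CPM in basal duct and at 41.6, 33.2 and 29.3 CPM in basal TEB replicates (log2 fold change 1.08, SE 0.31, FDR = 0.128). In both genes the lowest TEB library exceeded the highest duct library. Cyp51, lanosterol 14-demethylase, was at 83.5, 28.0 and 54.0 CPM in ducts and at 96.6, 96.4 and 101 CPM in TEBs. Sqle, squalene epoxidase, was at 43.9, 20.0 and 47.7 CPM in ducts and at 63.1, 63.7 and 75.7 CPM in TEBs. In each of these 4 the lowest duct library was replicate 2, and the coefficient of variation was smaller over the TEB than over the duct libraries. Elovl6, which elongates palmitate, was at 23.4, 15.2 and 36.5 CPM in ducts and at 54.7, 53.5 and 43.5 CPM in TEBs.

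Other values moved with this comparison. With 1 library left out the median of the 29 genes lay between 0.16, without basal TEB replicate 2, and 0.47. Without basal duct replicate 2 it was 0.21 and 0 of them passed the FDR, and without both libraries with the highest stromal markers the median was 0.22, also with 0 past it. All 6 endothelial, 8 of 8 fibroblast and 9 of 11 adipocyte markers tested had a log2 fold change below 0, and the adipocyte list summed to 124, 320 and 148 CPM in ducts and to between 101 and 124 CPM in TEBs. Most of that sum was Slc2a4, at 111, 98.5 and 117 CPM in ducts and 90.2, 89.3 and 78.8 CPM in TEBs, and Fabp4, at 179 CPM in basal duct replicate 2, and the other genes of the list together held 12.3, 42.9 and 21.3 CPM in ducts and between 12.1 and 15.2 CPM in TEBs. Of its defining genes, Adipoq was at 0 in all basal duct libraries and reached at most 2.14 CPM in TEBs, Plin1 reached at most 0.644 CPM, and Lep (3.59, 2.79 and 0.795 CPM in ducts), Plin4 (5.19, 2.03 and 10.2 CPM) and Cidec (5.29 CPM in basal duct replicate 2) were low. The 8 proliferation markers summed to 785, 287 and 784 CPM in ducts and to between 1010 and 1450 CPM in TEBs. The 6 basal markers summed to between 14700 and 18400 CPM in ducts and to between 5240 and 8160 CPM in TEBs. All 6 were lower in TEBs without overlap. Krt5, Krt14 and Krt17 were called, at log2 fold changes of -2.3, -2.87 and -1.96. Of 10 luminal markers 7 had a value below 0 and 3 above it, and Krt18 was called lower. Milk protein markers summed to between 16.6 and 197 CPM in ducts and to between 301 and 536 CPM in TEBs. Of the 4 tested, 0 were called. The part of these in the result was not tested.

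In luminal cells none of the 29 genes passed the FDR between TEBs and ducts, against 0.639% of all genes higher and 0.771% lower, and 9 had an unadjusted p under 0.05, as did 16.6% of all genes. DESeq2 called 5 of them, edgeR's likelihood ratio test 3 and limma voom 1, while calling 8.62%, 5.79% and 2.02% of all genes. The log2 fold change was above 0 for 23 genes (79.3%), against 52.1% of all genes, with a median of 0.45 against 0.04. The luminal groups did not overlap for 15 genes with the TEB libraries higher (51.7% of the 29) and 1 with the TEB libraries lower, beside 26.2% and 17.4% of all genes. With 2 duct libraries such separation is frequent, as these shares show.

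The 3 genes of lowest FDR were Fads1, Fasn and Acly. Fads1 (Entrez 76267, chr19:10182877-10196874) was at 58.5 and 94.0 CPM in luminal duct replicates 1 and 3 and at 22.5, 42.3 and 28.8 CPM in luminal TEB replicates 1 to 3. Each TEB library was below both duct libraries, and the log2 fold change was -1.29 (SE 0.31, FDR = 0.0702). Fasn, fatty acid synthase (Entrez 14104, chr11:120805958-120825166), was at 141 and 126 CPM in ducts and at 294, 235 and 270 CPM in TEBs (log2 fold change 1.00, SE 0.27, FDR = 0.0945). Acly (Entrez 104112, chr11:100476352-100528000) was at 187 and 172 CPM in ducts and at 294, 297 and 297 CPM in TEBs. The spread of Acly was small in both groups, and its log2 fold change was 0.72 (SE 0.20, FDR = 0.0959). Without luminal duct replicate 1, 3 of the 29 genes passed the FDR, among them Fads1 at -1.59 (FDR = 0.0237), and without basal duct replicate 2, 1 did. Without luminal duct replicate 3, none did.

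Among the sterol genes the highest log2 fold change between luminal TEBs and ducts was that of Mvk, mevalonate kinase, at 1.59 (SE 0.51, FDR = 0.148), with 6.83 and 3.50 CPM in ducts and 15.8, 15.6 and 15.2 CPM in TEBs. Idi1 was at 35.2 and 23.5 CPM in luminal ducts and at 69.4, 56.9 and 65.8 CPM in TEBs. Cyp51 was at 34.0 and 21.4 CPM and at 70.2, 61.6 and 56.8 CPM. In all of these the TEB libraries were close together and above both duct libraries. Hmgcs1, cytosolic HMG-CoA synthase, was at 63.3 and 27.8 CPM in ducts and at 94.0, 90.6 and 73.2 CPM in TEBs, and Nsdhl, a sterol dehydrogenase, at 18.2 and 4.65 CPM and at 22.1, 22.4 and 26.2 CPM. Luminal duct replicate 3 was the lower of both duct libraries for 19 of the 29 genes (65.5%), against 48.0% of all genes. In luminal ducts the fibroblast markers summed to 6.03 CPM in replicate 1 and 267 CPM in replicate 3, against between 12.1 and 54.4 CPM in TEBs, and the proliferation markers to 420 and 455 CPM, against between 1080 and 1240 CPM in TEBs. The 6 basal markers summed to 80.7 and 222 CPM in luminal ducts and to between 13.1 and 24.1 CPM in luminal TEBs, and 5 of them were called lower in TEBs. Of 10 luminal markers 0 were called, and 3 (Krt18, Elf5 and Kit) were lower and 1 (Esr1) higher in TEBs without overlap. Elf5 was at 123 and 84 CPM in ducts and at 40.4, 48.3 and 27.1 CPM in TEBs. For Kit these were 178 and 306 CPM and 107, 160 and 87.7 CPM. The milk protein markers summed to 390 and 366 CPM in ducts and to between 108 and 198 CPM in TEBs. The mitochondrial share was 8.51% and 28.5% in luminal ducts and between 4.34% and 4.77% in luminal TEBs. The part of these in the result was not tested.

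The genes of the SREBP factors themselves were not called in either cell type. Srebf1, which encodes SREBP1, was at 131, 91.5 and 176 CPM in basal ducts and at 101, 150 and 141 CPM in basal TEBs, and Srebf2 at 186, 100 and 194 CPM and at 157, 220 and 164 CPM, and the groups overlapped for both. In luminal cells the groups did not overlap: Srebf1 was at 139 and 136 CPM in ducts and at 170, 190 and 203 CPM in TEBs, and Srebf2 at 139 and 109 CPM and at 226, 201 and 228 CPM. The log2 fold changes in luminal cells were 0.45 (SE 0.26) and 0.82 (SE 0.28), and neither passed the FDR.

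**Figure D2:**
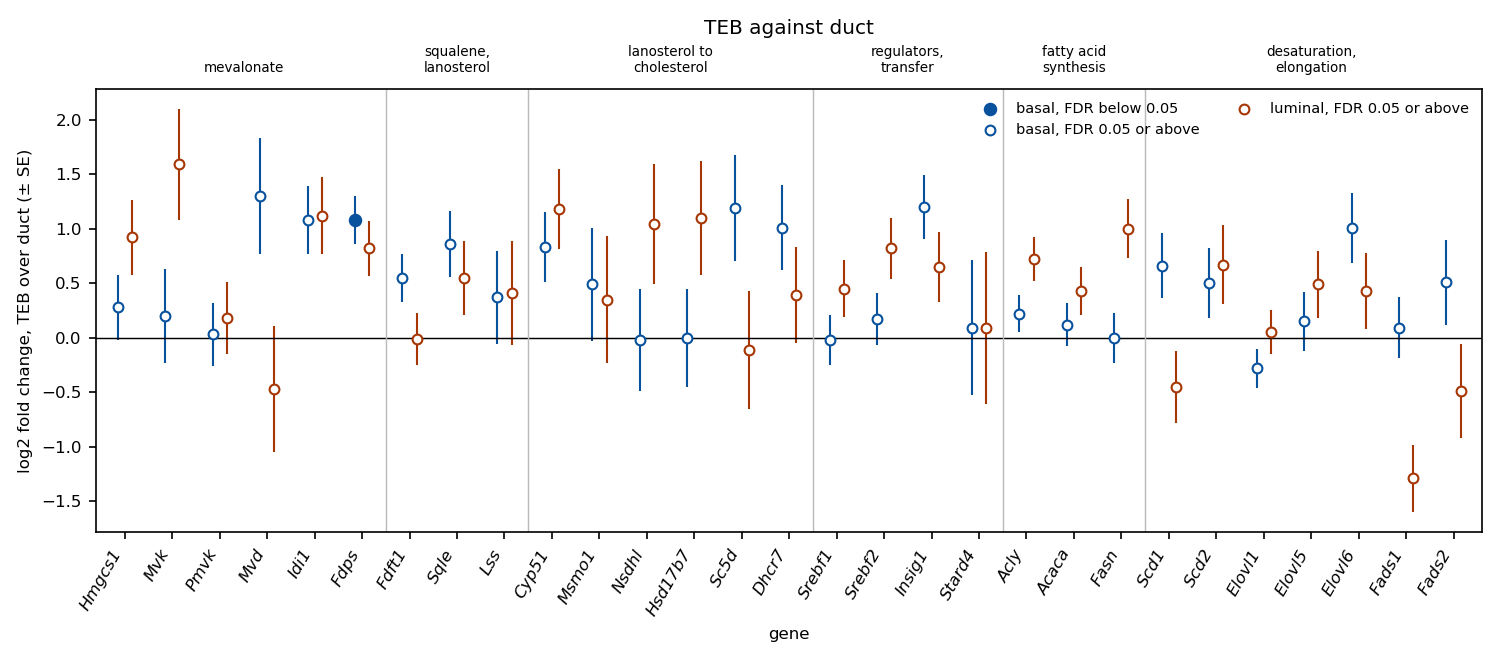
Log2 fold change of TEB over duct, with its standard error, for the 29 genes in basal cells (blue) and luminal cells (brown); filled points have an FDR below 0.05. The only filled point is Fdps in basal cells, at 1.08, and most points of the sterol genes lie above 0 in both cell types.

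The change from duct to TEB was then compared between basal and luminal cells by the interaction term. No gene of the 29 passed the FDR by edgeR's quasi-likelihood test, against 0.443% of all genes in either direction. An unadjusted p under 0.05 was found for 4 genes, beside 14.7% of all genes, and DESeq2, the likelihood ratio test and limma voom also called 0 of the 29, beside 4.91%, 3.62% and 0.547% of all genes. The 3 lowest FDR values were those of Fads1 at a basal minus luminal difference of 1.37 (SE 0.43, FDR = 0.182), Fasn at -1.0 (SE 0.36, FDR = 0.23) and Scd1 at 1.11 (SE 0.45, FDR = 0.276). Fads1 was at 118, 90.8 and 153 CPM in basal ducts and at 97.9, 139 and 146 CPM in basal TEBs, where the groups overlapped. Fasn was at 159, 97.1 and 119 CPM in basal ducts and at 113, 167 and 94.9 CPM in basal TEBs, which overlapped as well. Scd1 was at 46.1, 58.7 and 106 CPM in basal ducts and 119, 105 and 109 CPM in basal TEBs, and in luminal cells at 87.4 and 141 CPM in ducts and 61.9, 95.2 and 93.4 CPM in TEBs.

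Basal and luminal cells were compared within each structure. Insig1, Acaca and Elovl5 were higher in basal cells and Fdps, Fdft1, Acly and Elovl1 higher in luminal cells, in ducts and again in TEBs. The sterol enzymes called, Fdps and Fdft1 in both structures and Sc5d in ducts, were lower in basal cells. Of those not called, Hmgcs1 and Mvk in ducts and Cyp51 in TEBs were higher in basal cells without overlap. Mvd, Sqle and Lss in ducts and Idi1, Sqle, Lss, Msmo1 and Nsdhl in TEBs were lower without overlap. The share of all genes without overlap between the cell types is not given here. These uncalled cases therefore describe single genes and are no result about the 29 as a set. The genes called higher in basal cells were Insig1, a regulator, Acaca, Elovl5 and, in TEBs, Fads1. Of the fatty acid genes, Acly, Elovl1 and, in TEBs, Fasn were called lower. In ducts 3 genes were higher and 5 lower in basal than in luminal cells (10.3% and 17.2% of the 29), beside 12.6% and 9.71% of all genes. In TEBs 4 were higher and 5 lower (13.8% and 17.2%), beside 13.2% and 11.8%. The median log2 fold change of basal over luminal was -0.09 in ducts and -0.28 in TEBs, against 0.08 and 0.04 for all genes. The median in ducts lay between -0.31 and 0.06 with 1 library left out, above 0 without basal duct replicate 2, so its direction rests on that library, and was 0.04 with scaling by library size alone. In total 10 genes passed in at least 1 structure, 7 in both with the same direction and 0 in opposite directions, beside 31.9%, 15.4% and 0.0806% of all genes. Scaling by library size alone moved the median of all genes in TEBs from 0.04 to -0.35 and the split of the 9 calls from 4 higher and 5 lower to 2 higher and 7 lower.

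Of the sterol genes, Fdft1, squalene synthase (Entrez 14137, chr14:63145150-63181687), had the lowest FDR in ducts. It was at 22.4, 13.8 and 14.1 CPM in basal and at 77.7 and 65.0 CPM in luminal duct libraries, and at 25.3, 22.6 and 26 CPM in basal and 78.7, 67.2 and 66.7 CPM in luminal TEB libraries. Every luminal library exceeded every basal library by more than the range within either cell type. The log2 fold change was -2.09 (SE 0.24, FDR = 7.2e-05) in ducts and -1.53 (SE 0.22, FDR = 0.000299) in TEBs, and both calls held in all 21 alternatives. In the GENCODE annotation, exons of Fdft1 share 774 bases (18.3%) with Ctsb on the other strand. The library kit does not mark strand, so reads there cannot be told apart. Reads were counted on RefSeq exons, of 2863 bases for Fdft1, and the share of these was not computed. Ctsb was at between 440 and 503 CPM in basal ducts and at 518 and 403 CPM in luminal ducts, which overlapped. In TEBs it was at 362, 321 and 307 CPM in basal and at 467, 407 and 415 CPM in luminal cells, which did not overlap and were higher in luminal cells, as Fdft1 was; the part of Ctsb in the value of Fdft1 was not tested.

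Fdps, next to it in the pathway, was at 39.7 and 30.2 CPM in luminal ducts and at 66.4, 52.3 and 66.6 CPM in luminal TEBs. Within each structure these were above the basal values given before, while luminal duct replicate 3 was within the range of basal TEBs. Its log2 fold change of basal over luminal was -1.22 (SE 0.24, FDR = 0.00326) in ducts and -0.97 (SE 0.22, FDR = 0.0069) in TEBs. In the GENCODE annotation, part of its exons (26.7%) is shared on the same strand with Gm43738, a gene model not in the count table. The share of the 1461 bases counted for Fdps was not computed. Sc5d (Entrez 235293, chr9:42251592-42264300) was at 11.2, 23.7 and 18.5 CPM in basal and at 56.1 and 70.6 CPM in luminal ducts, with a log2 fold change of -1.83 (SE 0.53, FDR = 0.0282). The groups did not overlap, although the call was lost without basal duct replicate 1 or 3 and without either luminal duct replicate, at FDR values from 0.0536 to 0.115. In TEBs, Sc5d was at 55.6, 56.9 and 63.3 CPM in luminal cells and did not pass (-0.53, SE 0.48, FDR = 0.472), with the 81.8 CPM of basal TEB replicate 1 above them.

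Insig1 (Entrez 231070, chr5:28071412-28078662) went the other way. It was at 13.6 and 9.66 CPM in luminal ducts and at 22.9, 19.1 and 12.6 CPM in luminal TEBs, against a lowest basal value of 23.5 CPM in ducts and of 66.8 CPM in TEBs. The log2 fold change of basal over luminal was 1.49 (SE 0.33, FDR = 0.00668) in ducts and 2.05 (SE 0.29, FDR = 0.000251) in TEBs. Without luminal duct replicate 3 the value in ducts was 1.27 (FDR = 0.0575). Per length, Insig1 was at between 0.298 and 0.962 of Srebf2 in basal libraries and at between 0.0954 and 0.175 of it in luminal libraries.

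The 3 enzymes of fatty acid synthesis did not move as a unit. Acly was lower in basal than in luminal cells, with 113, 112 and 94.2 CPM in basal ducts and 150, 125 and 97.9 CPM in basal TEBs against the luminal values of at least 172 CPM. Its log2 fold change was -0.75 (SE 0.19, FDR = 0.0138) in ducts and -1.25 (SE 0.18, FDR = 0.000216) in TEBs, and in ducts the call was lost without luminal duct replicate 1 (FDR = 0.0568) and with scaling by library size alone (-0.64, FDR = 0.141). Acaca, acetyl-CoA carboxylase 1 (Entrez 107476, chr11:84129635-84401651), was at 98.5, 62.0 and 75.0 CPM in basal and 38.6 and 37.7 CPM in luminal ducts, and at 98.5, 82.9 and 74.0 CPM in basal and 47.4, 51.3 and 55.3 CPM in luminal TEBs. The basal libraries were above the luminal ones throughout, with log2 fold changes of 1.04 (SE 0.23, FDR = 0.00565) and 0.73 (SE 0.20, FDR = 0.0167). In TEBs the value of Acaca was 0.29 (FDR = 0.507) when scaled by library size alone, and the call was lost without basal TEB replicate 1 (0.61, FDR = 0.0536) and without luminal TEB replicate 1 (0.67, FDR = 0.0763) or 2 (0.71, FDR = 0.0623). Fasn passed in TEBs, at -1.09 (SE 0.24, FDR = 0.00491), and in ducts its value was -0.09 (SE 0.26, FDR = 0.841). The ratio of Acly to Acaca per length was between 2.35 and 3.7 in basal libraries and between 9.3 and 12.7 in luminal libraries, which do not overlap.

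The elongases were divided as well. Elovl1 (Entrez 54325, chr4:118426874-118432953) was at 42.7, 53.0 and 42.0 CPM in basal and 80.8 and 72.3 CPM in luminal ducts, and at 44.8, 34.0 and 34.7 CPM in basal and 81.2, 78.5 and 78.6 CPM in luminal TEBs. The cell types did not overlap, and the log2 fold change of basal over luminal was -0.74 (SE 0.19, FDR = 0.0169) in ducts and -1.07 (SE 0.18, FDR = 0.000787) in TEBs. Without basal duct replicate 1 or 3 or luminal duct replicate 1 the FDR in ducts was between 0.0509 and 0.0711, and with library size alone it was 0.128. Elovl5, which elongates polyunsaturated fatty acids (Entrez 68801, chr9:77917365-77984519), was at 39.1, 69.3 and 82.7 CPM in basal and 34.4 and 22.5 CPM in luminal ducts, and at 56.4, 71.1 and 84.0 CPM in basal and 40.6, 37.9 and 41.6 CPM in luminal TEBs. It was higher in basal cells by 1.16 (SE 0.32, FDR = 0.0213) in ducts and by 0.82 (SE 0.28, FDR = 0.0489) in TEBs. The call in ducts was lost without basal duct replicate 2 or 3 or luminal duct replicate 3 (FDR between 0.0516 and 0.152), and that in TEBs without basal duct replicate 2, basal TEB replicate 2 or 3 or any luminal TEB replicate (FDR between 0.0592 and 0.16). With library size alone its value was 0.44 (FDR = 0.461) in TEBs and 1.25 (FDR = 0.0808) in ducts, and without both libraries of highest stromal markers it was 0.83 (FDR = 0.222) in ducts. The ratio of Elovl5 to Elovl1 per length was between 0.626 and 1.66 in basal and between 0.213 and 0.362 in luminal libraries.

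Of the desaturases, Fads1 passed in TEBs, at a basal over luminal log2 value of 2.03 (SE 0.30, FDR = 0.000293) and basal values of at least 97.9 CPM against luminal values of at most 42.3 CPM. In ducts it was at 0.66 (SE 0.32, FDR = 0.17), and basal and luminal libraries overlapped. Fads2, the delta-6 desaturase of the same gene cluster, was at 46.2, 62.1 and 40.7 CPM in basal and 20.4, 38.2 and 22.3 CPM in luminal TEBs, without overlap, and did not pass (0.88, SE 0.39, FDR = 0.125). Scd2 was at 239, 271 and 263 CPM in basal and 192, 153 and 226 CPM in luminal TEBs, also without overlap and without passing (0.44, SE 0.32, FDR = 0.352).

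**Figure D3:**
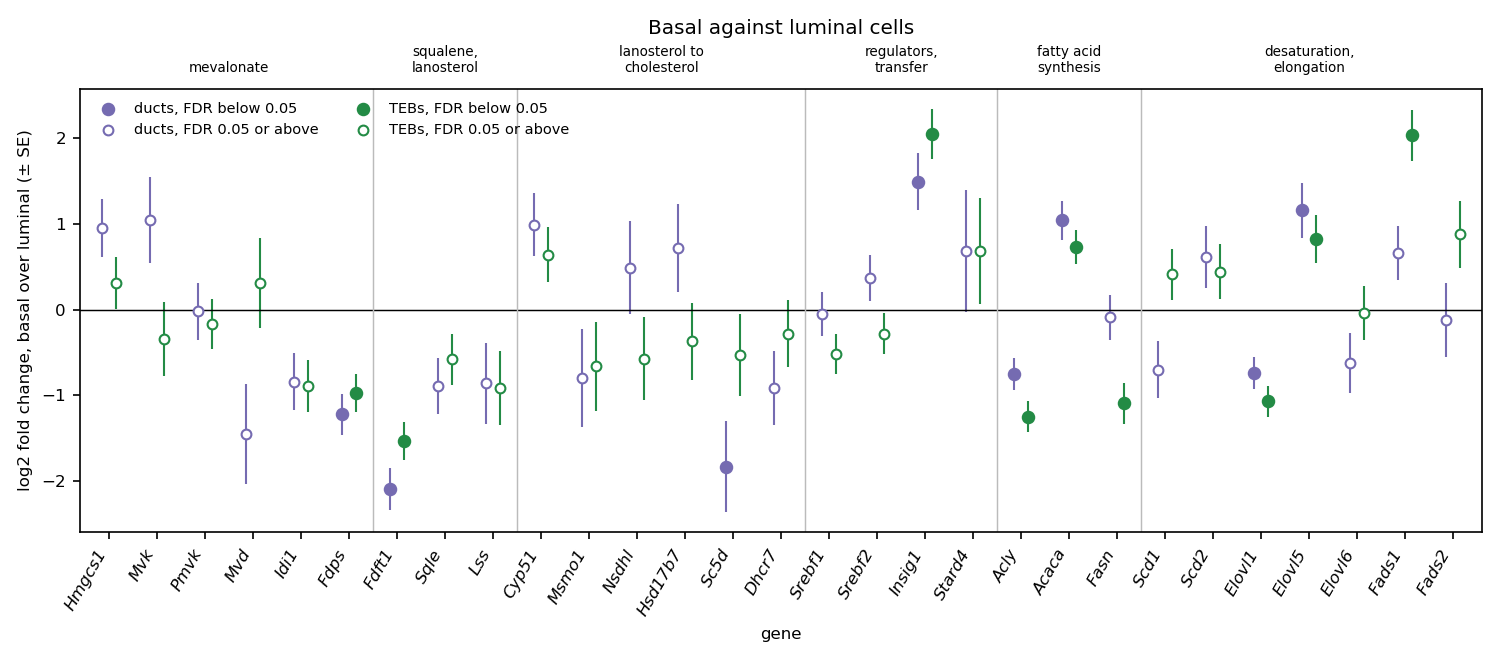
Log2 fold change of basal over luminal cells, with its standard error, for the 29 genes in ducts (purple) and TEBs (green); filled points have an FDR below 0.05. Filled points above 0 are Insig1, Acaca and Elovl5 in both structures and Fads1 in TEBs, and those below 0 include Fdft1, at -2.09 in ducts and -1.53 in TEBs.

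**Figure D4:**
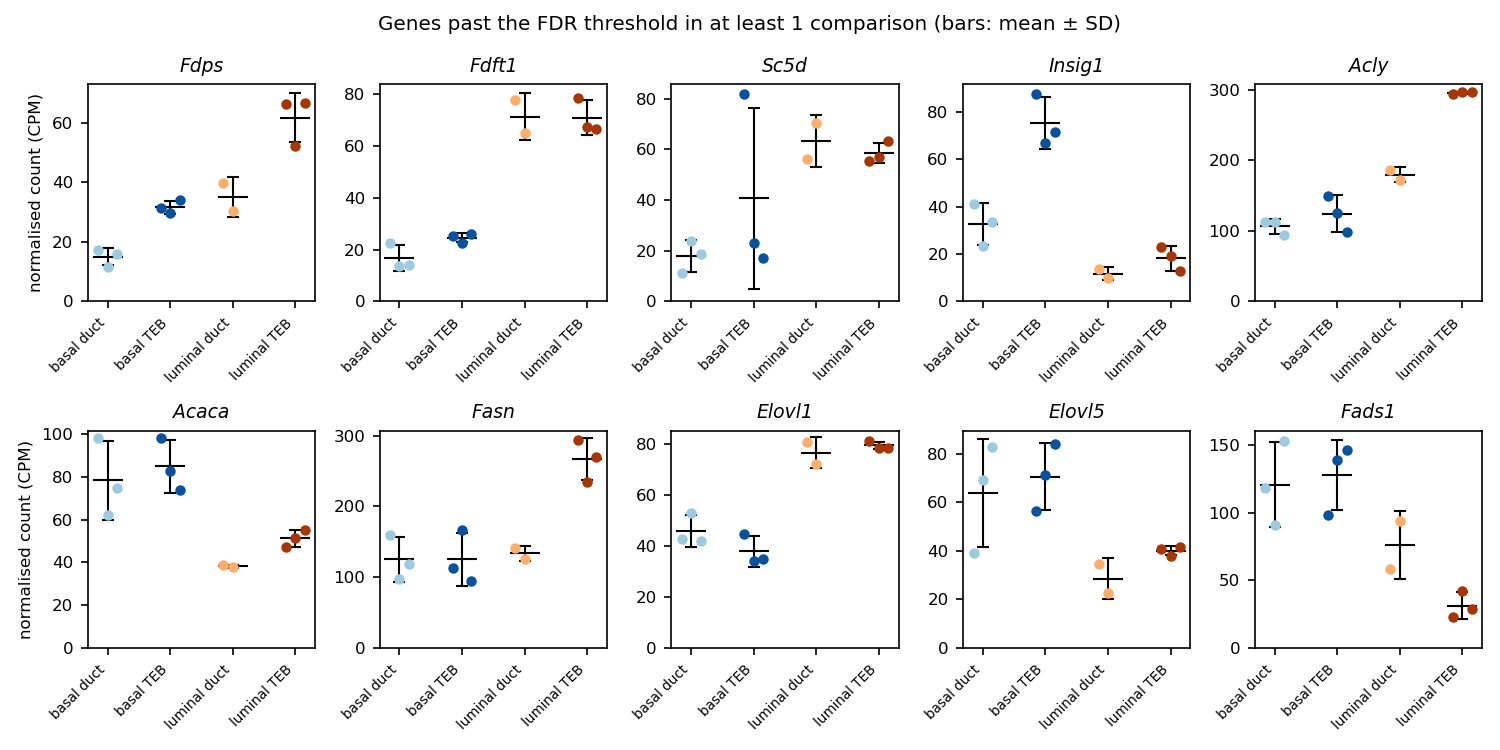
Normalised counts (CPM after TMM scaling, linear axis from 0) of the 10 genes past the FDR in at least 1 comparison, with 1 point per library, a dash for the group mean and bars for the SD (n = 3, luminal duct n = 2). Luminal TEB libraries are at 294 to 297 CPM for Acly, and basal TEB libraries at 66.8 to 87.6 CPM for Insig1; the wide bar of Sc5d in basal TEBs includes replicate 1 at 81.8 CPM.

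No comparison called the other 19 genes. Some of them had wide errors. Stard4 was between 4.34 and 18.3 CPM in basal ducts, between 5.07 and 13.5 CPM in basal TEBs and between 5.30 and 7.87 CPM in luminal libraries. The standard errors of Stard4 were from 0.62 to 0.94. Mvd, diphosphomevalonate decarboxylase, was at 11.1, 3.82 and 6.08 CPM in basal ducts and at 29, 15 and 7.70 CPM in basal TEBs, and its log2 fold change of 1.30 (SE 0.53, FDR = 0.298) was within that spread. Dhcr7, which makes the last step to cholesterol, was at 16.8, 9.63 and 12.6 CPM in basal ducts and at 34.1, 15.1 and 30 CPM in basal TEBs (1.01, SE 0.39, FDR = 0.274). For both, the duct and the TEB libraries overlapped. Lss, lanosterol synthase, was at 9.76, 4.79 and 14 CPM in basal and 14.7 and 19.9 CPM in luminal ducts, and at 8.77, 17.5 and 10.5 CPM in basal and 26.5, 21.8 and 20.9 CPM in luminal TEBs. Within each structure the cell types did not overlap for Lss, and its log2 fold changes of -0.86 and -0.91 did not pass. Pmvk, phosphomevalonate kinase, was the most even, between 14.1 and 28.4 CPM over all libraries, with log2 fold changes from -0.17 to 0.18 in the comparisons of groups. Hsd17b7, a 3-ketosteroid reductase, was between 5.10 and 24.2 CPM, with the lowest value in luminal duct replicate 3.

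Neighbouring pathways are given from lists drawn up from general knowledge, with earlier results of these data known. The list of other sterol synthesis held 9 genes tested. In luminal TEBs Lbr, a sterol reductase and lamin B receptor, rose from 28.5 and 33.5 CPM to 67.3, 74.5 and 66.8 CPM (1.17, SE 0.23, FDR = 0.0324), a call lost without basal duct replicate 1 or 3 and without any luminal library (FDR from 0.0513 to 0.136). Ebp was lower (-1.38, SE 0.34, FDR = 0.0124) and Lbr higher (0.90, SE 0.23, FDR = 0.0131) in basal than in luminal ducts, and in TEBs 0 of the 9 were called. Both calls in ducts were lost without luminal duct replicate 1 (-0.77, FDR = 0.168, and 0.79, FDR = 0.0719), and that of Ebp also without basal duct replicate 1 (FDR = 0.0516).

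The medians of the lists between TEBs and ducts were, in basal and in luminal cells, 0.25 and 0.35 for other sterol synthesis, 0.36 and 0.50 for sterol sensing and uptake and -0.76 and -0.65 for sterol export and storage, beside -0.03 and 0.04 for all genes. For other fatty acid synthesis they were -0.19 and 0.41, for triglyceride synthesis -0.14 and 0.13 and for fatty acid oxidation -0.22 and 0.21. The counts of these lists in basal against luminal cells that follow stand beside 12.6% of all genes higher and 9.71% lower in ducts and 13.2% higher and 11.8% lower in TEBs.

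Of 13 genes of sterol sensing and uptake, 0 passed between TEBs and ducts in either cell type, while in basal against luminal cells 3 were higher and 1 lower in ducts and 3 higher and 4 lower in TEBs. Vldlr, a lipoprotein receptor, was at 34.1, 39.4 and 72.4 CPM in basal ducts and at 104, 103 and 113 CPM in basal TEBs, and at no more than 5.24 CPM in any luminal library. Its log2 fold change was 3.99 (SE 0.50, FDR = 0.000126) in ducts and 4.93 (SE 0.43, FDR = 6.13e-06) in TEBs. Npc1, which exports cholesterol from lysosomes, was higher in basal cells by 1.21 and 1.07, and Stard3 lower by -1.19 and -1.31. Of 9 genes of sterol export and storage, 0 passed between TEBs and ducts, 4 were higher and 2 lower in basal ducts and 4 higher and 1 lower in basal TEBs. Apoe, the carrier of cholesterol in lipoproteins, was between 2070 and 4040 CPM in basal and between 26.6 and 116 CPM in luminal libraries. Soat1, which esterifies cholesterol, was higher in basal cells by 2.22 (SE 0.44) and 2.07 (SE 0.37).

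Of 24 other genes of fatty acid synthesis, 4 were higher and 3 lower in basal ducts and 5 higher and 7 lower in basal TEBs than in the luminal cells. Elovl4, an elongase of very long chains, was between 28.2 and 66.4 CPM in basal libraries, at 0.273 and 0.0822 CPM in luminal ducts and at 2.73, 5.07 and 2.06 CPM in luminal TEBs. It was the only gene of the list called between TEBs and ducts, higher in luminal TEBs (4.07, SE 0.56, FDR = 0.00943), and the only one called for the interaction (-4.72, SE 0.66, FDR = 0.0126). Its value in luminal ducts rests on 12 and 2 counts, and the interaction had an FDR of 0.0547 without basal duct replicate 1 and of 0.151 with limma voom. The call between luminal TEBs and ducts was lost with limma voom (FDR = 0.133) and with library size alone (FDR = 0.0502). Hacd2, a dehydratase of the elongation cycle, was higher in basal cells by 3.66 in ducts and 3.08 in TEBs, and Acsl5, an acyl-CoA synthetase, lower by -1.38 and -2.02. Of 14 triglyceride synthesis genes, 0 were higher in basal cells and 3 were lower in ducts and 8 in TEBs, beside 9.71% and 11.8% of all genes lower. Dgat2, which makes the last step to triglyceride, was between 6.19 and 16.7 CPM in basal and between 46.6 and 104 CPM in luminal libraries, without overlap (-2.47, SE 0.38, in ducts and -3.37, SE 0.37, in TEBs). Of 16 fatty acid oxidation genes, 3 were higher and 1 lower in basal ducts and 2 higher and 4 lower in basal TEBs. Hadhb, of the mitochondrial trifunctional protein, was higher in basal cells by 1.04 in ducts and 0.83 in TEBs.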

How the data were processed

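Bulk RNA-seq libraries were made by the authors from sorted cells with the Illumina TruSeq RNA v2 kit. Reads were aligned to mm10 and counted by Entrez gene with Rsubread and its inbuilt RefSeq annotation, and featureCounts is named in the submitters' processing notes. The deposited values are whole counts, not normalized; strand and multi-mapping settings are not given in the sources used here. Symbols and coordinates came from RefSeq (GRCm38.p6), and overlaps between exons of different genes from GENCODE. Low genes were dropped by filterByExpr (at least 10 counts, 15 in total), and the rest scaled by TMM and fitted over 4 groups with edgeR 4.0.16 (quasi-likelihood test, Benjamini-Hochberg adjustment, FDR 0.05) in R 4.3.3, where the paper names glmFit. Standard errors were taken as |log2 fold change| over the root of F. DESeq2 1.42.0 and limma 3.58.1 were alternatives. Scripts were tested on simulated data. Luminal duct rests on 2 libraries, and replicates are pools of mice. The 29 genes and the lists were chosen with earlier results of these data known. Genes described library by library were those past the FDR, up to the 8 of lowest FDR in a comparison, or the 3 of lowest FDR where none passed, and up to 3 called genes per other list; others named were chosen after their values were seen. Some genes of the other lists are not reported here.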

Additional observations from a re-analysis of the deposited data

How the results depend on the processing

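Over 21 alternatives, the 60 log2 fold changes tested (genes called, the 3 of lowest FDR where none was, and up to 3 called genes of each other list) kept their direction, with 91 calls lost and 9 gained. Other values named were not recomputed. Counts of called genes moved most between TEBs and ducts. In basal cells the count of 1 became 3 with DESeq2, 3 with the likelihood ratio test, 2 with limma voom, 0 with library size alone and 0 without both libraries of highest stromal markers (basal duct replicate 2 and luminal duct replicate 3, a choice made after seeing the data), and lay between 0 and 1 with each library left out. In luminal cells the count of 0 became 5 with DESeq2, 3 with the likelihood ratio test, 1 with limma voom and 1 without the filter, and lay between 0 and 3 with each library left out. In ducts the 8 calls of basal against luminal became 5 with library size alone. The cause was not tested. With each library left out the counts were between 6 and 9 in ducts, between 7 and 10 in TEBs and 0 for the interaction. Library size alone moved the median of all genes from -0.03 to -0.16 between basal TEBs and ducts and from 0.04 to 0.42 between luminal ones, with medians of the 29 genes at 0.29 and 0.84. With the replicate number as a block, 2 genes were called between basal TEBs and ducts. Same-numbered libraries deviated together at r from -0.07 to 0.16, over 0.1 in 3 of 10 pairs, and differently numbered ones at r from -0.16 to 0.14. The labels do not say whether a shared number marks a pairing, so no paired result is given. A prior count of 0.5 in place of 2 moved no level by more than the spread between replicates at the lowest value. The 2 luminal duct libraries limit what could be detected in that comparison.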
